A study of Mus musculus with 10 samples.

Results

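High endothelial venules are the postcapillary venules of lymph nodes through which lymphocytes leave the blood. The 9 genes described here are 7 genes of these venules, Glycam1, Chst4, Madcam1, Fut7, Ackr1, Selp and Sele, and 2 genes of endothelium in general, Cdh5 and Pecam1. They were chosen by name and found through 1 Ensembl identifier each (ENSMUSG00000022491 for Glycam1, ENSMUSG00000035930 for Chst4, ENSMUSG00000020310 for Madcam1, ENSMUSG00000036587 for Fut7, ENSMUSG00000037872 for Ackr1, ENSMUSG00000026580 for Selp, ENSMUSG00000026582 for Sele, ENSMUSG00000031871 for Cdh5 and ENSMUSG00000020717 for Pecam1), and they are 9 of the 33585 genes measured.

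The cells of these venules carry sialomucins such as the product of Glycam1 and, in some nodes, the addressin encoded by Madcam1. Fut7 encodes a fucosyltransferase and Chst4 a sulfotransferase, which together finish the sulfated, fucosylated sugars that lymphocytes bind as they leave the blood. The state of the venules depends on lymphotoxin signalling from neighbouring cells, and E- and P-selectin (Sele, Selp) are inducible or stored in venules under inflammation. Ackr1 encodes an atypical chemokine receptor of venular endothelium, Cdh5 encodes VE-cadherin of endothelial junctions, and Pecam1 encodes CD31, which leukocytes and platelets carry too.

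The data were bulk RNA-seq of tumor-draining inguinal lymph nodes (TDLNs) of wild-type female BALB/c mice, 6 weeks old, whose mammary fat pad had been inoculated with 4T1 cells, a transplantable mouse mammary carcinoma line. All 10 mice received microwave ablation (MWA) of the tumor on day 10 and gave their TDLNs on day 15, and 5 belonged to the MWA group, which by the study's methods received PBS, and 5 to the MWA+2DG group. 2DG is 2-deoxy-D-glucose, an inhibitor of glycolysis, given intraperitoneally at 500 mg/kg every 2 days from day 10. The labels number the libraries 1 to 5 in each group and each was taken as 1 mouse, no untreated or non-ablated node was analysed here, and the comparison asked whether 2DG after MWA went with other levels of the venule genes. Values were FPKM (fragments per kilobase of transcript, scaled to the mapped fragments of the library), a level already divided by transcript length, so that levels of different genes can be set side by side. In a whole node, fewer venule cells and less RNA per venule cell cannot be told apart.

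No venule gene and neither general endothelial gene passed a test of the difference between MWA+2DG and MWA mice. Of the 9 genes, 7 had a mean of at least 1 FPKM and entered the limma fit on log2(FPKM + 1) with the other tested genes, 13334 in all, while Selp and Sele lay under that limit. The rule for a changed gene came from the study's methods and joins an unadjusted P below 0.05 with a log fold change beyond 0.25, taken here as log2. By it 0 of the 7 genes were higher and 0 were lower, beside 0.952% of all tested genes called higher and 1.87% called lower. Rescaling the libraries to equal FPKM totals turned the split over all genes, from 127 higher and 249 lower to 328 higher and 159 lower, and still called none of the 7. At an adjusted p below 0.05 limma called 0% of the tested genes, although 567 had an unadjusted P below 0.05, and an exact Wilcoxon test gave 416 and likewise 0 after adjustment. The 2 groups overlapped for each of the 9 genes, and they did not overlap for 0.802% of the tested genes.

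**Figure D1:**
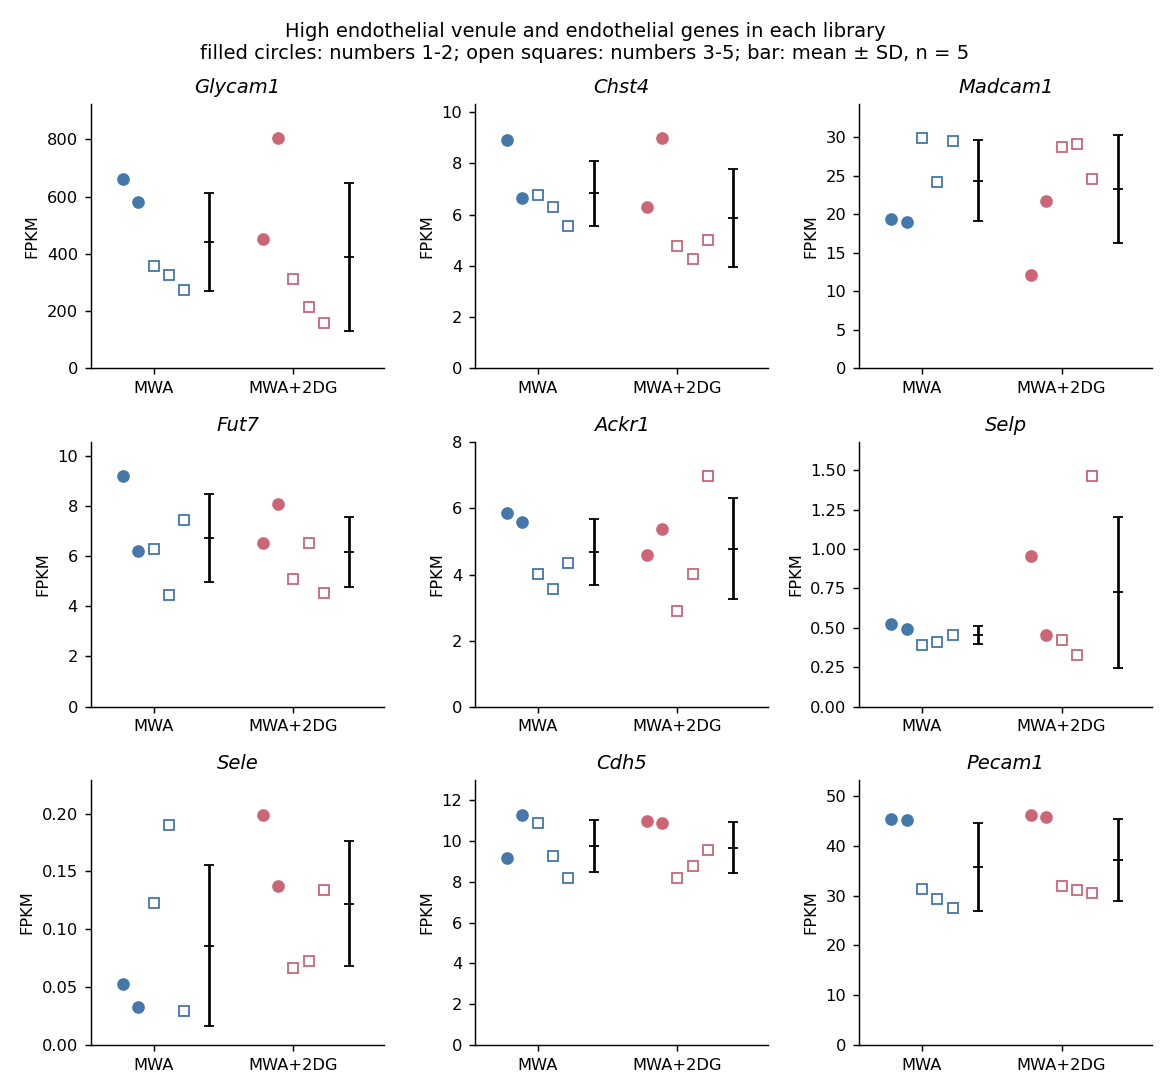
FPKM (vertical axes, from 0) of the 9 genes in each library of the MWA (blue) and MWA+2DG (red) groups; filled circles are the libraries numbered 1 and 2, open squares those numbered 3 to 5, and bars give the mean ± SD of 5 mice. The groups overlap in every panel, and for Glycam1 and Pecam1 all filled circles lie above all open squares, whereas for Madcam1 they lie below.

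The promoters of Glycam1 and Madcam1 are shown because these 2 scaffold genes were high in different libraries, as described further on. RefSeq's table held an entry for 7 of the 9 genes (8 entries, since Fut7 had 2), all but Cdh5 and Pecam1. The stretches are the 250 bases before the start in build GRCm38.p6, at chr15:103565082-103565331 on the minus strand for Glycam1 and chr10:79664309-79664558 on the plus strand for Madcam1, printed 5′ to 3′ along the gene with motif matches in capitals.
Glycam1: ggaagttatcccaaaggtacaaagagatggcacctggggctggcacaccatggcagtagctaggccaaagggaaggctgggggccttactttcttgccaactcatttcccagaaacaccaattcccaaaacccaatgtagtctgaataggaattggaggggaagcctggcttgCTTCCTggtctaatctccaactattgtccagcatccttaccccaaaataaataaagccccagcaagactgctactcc
Madcam1: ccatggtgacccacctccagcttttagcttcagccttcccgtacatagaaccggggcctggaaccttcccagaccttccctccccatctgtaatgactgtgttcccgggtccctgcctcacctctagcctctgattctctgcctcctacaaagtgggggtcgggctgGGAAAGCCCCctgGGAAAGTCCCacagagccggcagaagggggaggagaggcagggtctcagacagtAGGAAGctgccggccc
Capitals mark GGGNN followed directly by TTTCC, a core of sites for NF-κB, and AGGAAG, a core that ETS factors of endothelium bind, each searched on both strands together with TATAAA, and no marked match overlapped another. The Madcam1 stretch held 2 matches to the NF-κB core, at bases -83 to -74 and -70 to -61 before the start, and 1 ETS core at -16 to -11. None of the other entries of these genes held the NF-κB core, which occurred in 1.41% of all 32851 promoter entries. The Glycam1 stretch held 1 ETS core, at -77 to -72, and that core occurred in 29.5% of all entries. Ackr1 held 3 ETS cores, Selp, Sele and 1 entry of Fut7 held 1 each, and Chst4 held none of the 3 motifs. Sele alone among these genes held TATAAA, which was present in 12.4% of all promoters. A match of letters is a description and was not tested for binding.

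Among the sialomucin scaffolds, Glycam1 was by far the most abundant of the 9 genes and ranked between place 43 and place 281 of all genes in single libraries. It measured 663, 580, 359, 326 and 273 FPKM in MWA mice 1 to 5. In MWA+2DG mice 1 to 5 it measured 451, 804, 311, 214 and 158 FPKM. The highest library and the 2 lowest were all of the MWA+2DG group, so that the groups differed less in their means than mice did within each. The means were 388 ± 258 FPKM under 2DG and 440 ± 171 FPKM in the MWA group (SD, n = 5 each). The log2 fold change was -0.33 with a standard error of 0.41 and a 95% confidence interval from -1.25 to 0.58 (limma, adjusted p = 0.995), which allows anything from 0.42 to 1.5 times the MWA level on the FPKM + 1 scale. An exact two-sided permutation test of FPKM over all regroupings of the mice, whose smallest possible p is 0.00794, gave p = 0.722.

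Madcam1, which binds the integrin α4β7, was present at 19.4, 19.0, 29.9, 24.2 and 29.5 FPKM in the MWA mice. It stood at 12.1, 21.7, 28.8, 29.2 and 24.6 FPKM in the MWA+2DG mice. The lowest value belonged to an MWA+2DG mouse and the highest to an MWA mouse, with the other values mixed. Its log2 fold change was -0.10 with an interval from -0.61 to 0.40 (limma, adjusted p = 0.995), and without MWA+2DG mouse 1 it turned to 0.11 and still did not pass.

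The other scaffolds were less abundant. Cd34 was at 4.79 ± 1.32 FPKM with 2DG and 5.31 ± 1.00 FPKM without (SD, n = 5), and Cd300lg, which encodes nepmucin, another sialomucin of these venules, was at 5.17 ± 1.40 and 5.95 ± 2.10 FPKM. Podxl, encoding podocalyxin, was at 2.62 ± 0.405 and 2.24 ± 0.256 FPKM. None of the 6 tested scaffold genes passed the rule in either direction, and their median log2 fold change was -0.12, against 0.007 over all tested genes. Podxl2 lay under the limit, between 0.0898 and 0.347 FPKM.

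Chst4 and Fut7, the enzyme genes among the 9, were measured at single-digit levels. Chst4 read 8.92, 6.64, 6.76, 6.28 and 5.55 FPKM in MWA mice 1 to 5. It read 6.3, 8.98, 4.78, 4.27 and 4.99 FPKM in MWA+2DG mice 1 to 5. The MWA+2DG mice numbered 3 to 5 lay below every MWA mouse, while MWA+2DG mouse 2 was the highest of all 10. The means were 5.86 ± 1.9 FPKM with 2DG and 6.83 ± 1.26 FPKM without (SD, n = 5), and the exact permutation p was 0.365. The log2 fold change of -0.22 had an interval from -0.60 to 0.16 (limma, adjusted p = 0.995). Chst4 was the 1 gene of the 7 whose call turned on a single library: without MWA+2DG mouse 2 its log2 fold change was -0.36 with an interval from -0.66 to -0.06 and an unadjusted limma P of 0.0225, past the rule, and an adjusted p of 0.997 (0.866 to 1.0 over all alternatives).

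Fut7 was at 9.18, 6.22, 6.27, 4.47 and 7.45 FPKM in the MWA mice. With 2DG it was at 6.54, 8.09, 5.10, 6.53 and 4.53 FPKM. All 5 values with 2DG lay inside the range of the MWA mice, and the log2 fold change was -0.10 with an interval from -0.49 to 0.29 (limma, adjusted p = 0.995). Fut7 is also expressed by activated leukocytes, so that its level in a whole node is not the level in venules alone.

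Of the 15 genes listed for ligand synthesis, 14 were tested, 0 rose and 0 fell by the rule, and their median log2 fold change was 0.02. B4galt1, a galactosyltransferase used by most cells, had the smallest P of the list, with 24.5 ± 1.42 FPKM with 2DG and 21.5 ± 2.64 FPKM without (SD, n = 5). Its log2 fold change of 0.19 had a limma P of 0.0535 and an adjusted p of 0.995, and it passed the rule without MWA mouse 1, at 0.254, or with libraries rescaled to equal totals, at 0.257. Slc35c1, the transporter that carries GDP-fucose into the Golgi, followed with a log2 fold change of 0.13 (limma, adjusted p = 0.995). B3gnt3, the core 1 extension enzyme of the ligand, lay under the limit, between 0.442 and 1.09 FPKM.

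**Figure D2:**
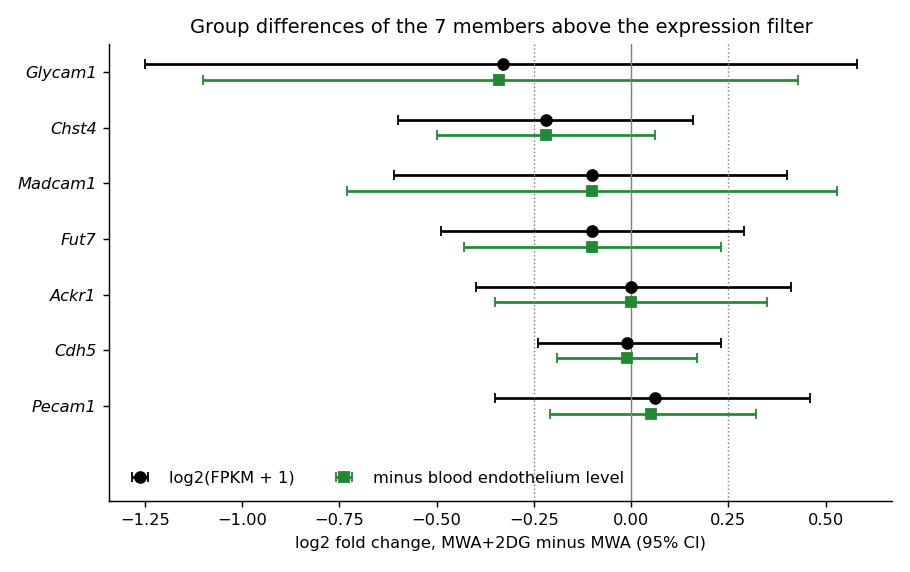
Log2 fold change of MWA+2DG over MWA (horizontal axis) with its 95% confidence interval for the 7 genes above the expression limit, on log2(FPKM + 1) (black circles) and after subtraction of the blood endothelium level of each library (green squares); dotted lines stand at -0.25 and 0.25. Every interval spans 0, and Glycam1 has the widest, from -1.25 to 0.58.

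Ackr1 had nearly the same mean log2 level in both groups. It was 5.85, 5.60, 4.01, 3.57 and 4.36 FPKM in the MWA mice. It was 4.6, 5.39, 2.90, 4.03 and 6.97 FPKM in the MWA+2DG mice. Both the lowest and the highest value were of the MWA+2DG group. The log2 fold change was 0.00 with an interval from -0.40 to 0.41 (limma, adjusted p = 1.0), and its sign turned under 7 alternative settings and stayed under 12.

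The selectins of inflamed venules were low. Selp was at 0.527, 0.492, 0.393, 0.409 and 0.453 FPKM in the MWA mice. With 2DG it was at 0.955, 0.457, 0.425, 0.326 and 1.46 FPKM. MWA+2DG mice 1 and 5 lay above all MWA mice and the others lay among or below them, which gave means of 0.724 ± 0.478 and 0.455 ± 0.0557 FPKM (SD, n = 5) and an exact permutation p of 0.381. Since Selp is also a platelet gene, platelet markers were read beside it. The 13 listed genes summed to 13.1 to 19.8 FPKM with 2DG and 13.6 to 18.6 FPKM without, 3 of them were tested and 0 passed the rule. Among the defining markers, Gp6 was listed at 0 in every library and Gp9 reached at most 0.062 FPKM. Gp1ba, at 0.13 to 0.462 FPKM, and Clec1b, at 0.149 to 0.533 FPKM, overlapped the range of Selp. Itgb3 and Itga2b, integrin genes that other cells express too, were at 6.11 to 12.5 and 1.94 to 4.51 FPKM. Pf4, which other myeloid cells also express, was at 2.15 FPKM in MWA+2DG mouse 5, its lowest value, where Selp was highest. The part of platelets in the Selp values was not tested.

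Sele did not exceed 0.199 FPKM in any library. It was at 0.053, 0.0332, 0.123, 0.190 and 0.0293 FPKM in the MWA mice. It was at 0.199, 0.137, 0.0667, 0.0724 and 0.134 FPKM in the MWA+2DG mice, and the groups overlapped over most of their range (exact permutation p = 0.389). The reads behind these values are unknown, since the FPKM tables hold no counts, and differences at this level were not resolved.

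Of the other genes listed for venule adhesion, Icam1, Icam2, Vcam1, Plvap and Lrg1 stood far higher than the selectins. Vwf, at 0.113 to 0.651 FPKM, Jam2, at 0.654 to 1.8 FPKM, and Nr2f2, at 1.19 to 2.06 FPKM, overlapped the range of Selp. Cd99l2, at 2.58 to 4.51 FPKM, lay above that range. Icam1, a ligand of lymphocyte integrins, was at 39.8 ± 5.19 FPKM with 2DG and 38.3 ± 2.24 FPKM without (SD, n = 5). Plvap, which encodes the diaphragm protein of fenestrated and venular endothelium, was at 54.1 ± 3.87 and 55.6 ± 5.80 FPKM. Nr2f2, the venous transcription factor, was at 1.57 ± 0.322 and 1.71 ± 0.259 FPKM. In this list of 12 genes, Ackr1, Selp and Sele included, 9 were tested, 0 passed the rule in either direction, and log2 fold changes ran around a median of 0.00.

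Cdh5 had the narrowest range of the 9 genes. It measured 9.19, 11.3, 10.9, 9.25 and 8.17 FPKM in the MWA mice. It measured 11.0, 10.9, 8.21, 8.76 and 9.59 FPKM in the MWA+2DG mice, and its highest value was 1.38 times its lowest. The log2 fold change was -0.01 with an interval from -0.24 to 0.23 (limma, adjusted p = 0.999). Rescaling each library to the same FPKM total turned its sign, to 0.05.

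Pecam1 was the second most abundant of the 9 genes, at 45.5, 45.3, 31.4, 29.3 and 27.6 FPKM in the MWA mice. It was at 46.3, 45.9, 32.0, 31.1 and 30.5 FPKM in the MWA+2DG mice. Both groups split at the same place, between the libraries numbered 1 and 2 and those numbered 3 to 5. The log2 fold change was 0.06 with an interval from -0.35 to 0.46 (limma, adjusted p = 0.995).

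Ordered by mean FPKM over the 10 libraries, the levels were 414 for Glycam1, 36.5 for Pecam1, 23.8 for Madcam1, 9.72 for Cdh5, 6.44 for Fut7, 6.35 for Chst4, 4.73 for Ackr1, 0.590 for Selp and 0.104 for Sele. Glycam1 lay above Pecam1 in every library without overlap, and so did Ackr1 above Selp and Selp above Sele. Madcam1 lay above Cdh5 without overlap as well. Pecam1 and Madcam1 overlapped, and so did each neighbouring pair from Cdh5 through Fut7 and Chst4 to Ackr1.

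The libraries did not form 1 set. Alb, an albumin transcript of hepatocytes, was at no more than 0.0486 FPKM in the 4 libraries numbered 1 and 2 of either group and at 35.1 to 102 FPKM in the 6 numbered 3 to 5. The labels give no batch or date for this split, both treatment groups fall on both sides of it, and its part in the levels of the venule genes was not tested. Of the 9 genes, 3 did not overlap between these libraries, beside 9.84% of all tested genes. Glycam1 was at 451 to 804 FPKM in the libraries numbered 1 and 2 and at 158 to 359 FPKM in those numbered 3 to 5. Pecam1 was at 45.3 to 46.3 FPKM against 27.6 to 32.0 FPKM. Madcam1 went the other way, at 12.1 to 21.7 FPKM against 24.2 to 29.9 FPKM.

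For the ligand scaffolds, ligand synthesis, venule adhesion and lipid mediators, 29 other listed genes were tested. Of these, 8 were higher without overlap in the libraries numbered 1 and 2, and 0 were lower without overlap. The other 21 overlapped, Podxl, Nr2f2, Icam1, Plvap and Spns2 among them. Of all tested genes 9.84% did not overlap, both directions together, and the share in each direction was not taken. Cd34 was at 6.17 to 6.48 FPKM in the libraries numbered 1 and 2 and at 3.34 to 4.73 FPKM in the others. Cd300lg was at 6.10 to 8.92 against 3.97 to 4.58 FPKM. Enpp2, encoding autotaxin, which makes lysophosphatidic acid at these venules, was at 51.8 to 67.5 against 31.5 to 48.2 FPKM. Chst4, Fut7, Ackr1, Cdh5, Selp and Sele overlapped between the sets.

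**Figure D3:**
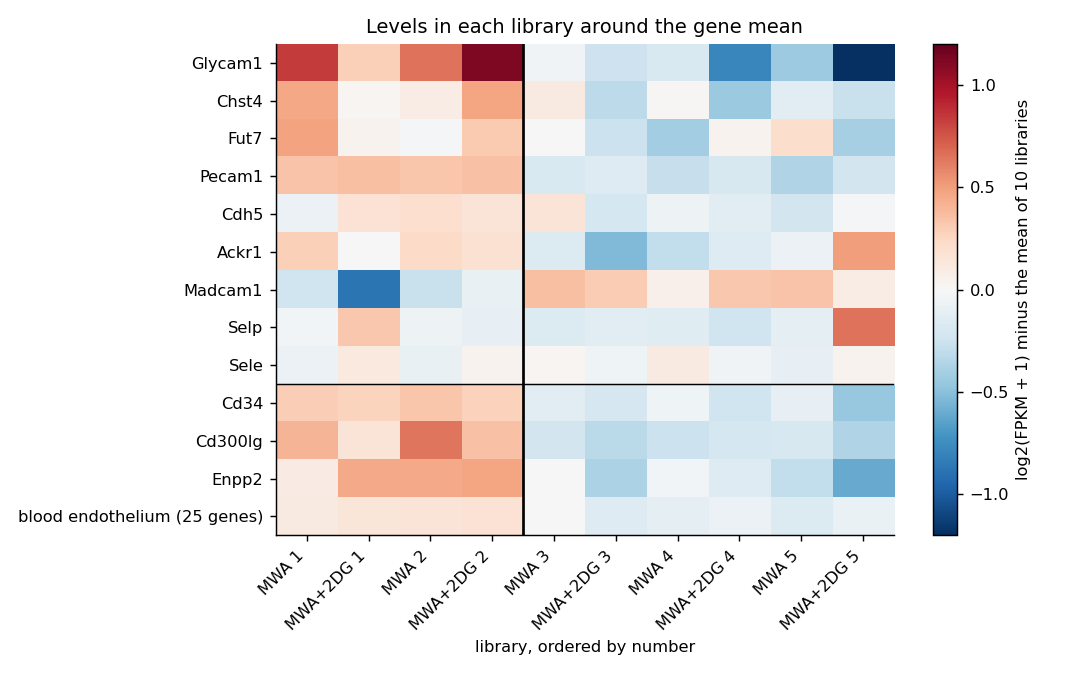
Log2(FPKM + 1) of the 9 genes, of Cd34, Cd300lg and Enpp2, and of the mean of 25 blood endothelium genes, as the difference from the mean of the 10 libraries (colour scale), with libraries ordered by their number (horizontal axis) and a black line between numbers 2 and 3. Glycam1, Pecam1, Cd34, Cd300lg, Enpp2 and the blood endothelium genes lie above their means on the left of the line and Madcam1 below.

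Within the sets the treatment groups were compared again. Among the libraries numbered 1 and 2 the log2 difference of MWA+2DG minus MWA was -0.04 for Glycam1 and -0.03 for Chst4. Among those numbered 3 to 5 it was -0.53 for Glycam1, where the 3 MWA+2DG mice (158 to 311 FPKM) overlapped the 3 MWA mice (273 to 359 FPKM). For Chst4 it was -0.34, with all 3 MWA+2DG mice (4.27 to 4.99 FPKM) below the 3 MWA mice (5.55 to 6.76 FPKM). The share of all tested genes whose groups separate within a set was not taken, so this separation has no background beside it. Exchanging labels within sets only, an exact permutation test whose smallest p is 0.0167 gave p = 0.283 for Glycam1 and p = 0.233 for Chst4. The remaining 7 of the 9 genes gave exact permutation p-values between 0.1 (Pecam1) and 0.9 (Ackr1, Cdh5). With the set as a term in the fit, the interval of Glycam1 was -0.81 to 0.14 and that of Chst4 -0.48 to 0.05, neither past the rule. Of 34 genes given this permutation test, the 9 and others named here, 3 reached its smallest p, Cd34, Lta and Osm. Each of these 3 also had a limma P among the 3 smallest of its list for the same comparison. Their permutation p-values are thus no independent support, and the share of all tested genes reaching this p was not taken. Cd34 was lower with 2DG without overlap in each set, at 6.17 to 6.23 against 6.32 to 6.48 FPKM in the libraries numbered 1 and 2 and at 3.34 to 4.19 against 4.45 to 4.73 FPKM in those numbered 3 to 5. Its log2 fold change of -0.14 did not pass the rule (limma, adjusted p = 0.995), nor with the set as a term (unadjusted limma P of 0.073).

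To set the venule genes against the amount of endothelium in each node, the mean log2(FPKM + 1) of 25 blood endothelium genes, none of them among the 9, was subtracted in each library. This level was between 1.94 and 2.26 in the MWA mice and between 1.95 and 2.28 in the MWA+2DG mice. By number it was 2.21 to 2.28 in libraries 1 and 2 and 1.94 to 2.11 in libraries 3 to 5, without overlap. Of its 22 tested genes 0 rose and 0 fell by the rule, with a median log2 fold change of -0.01. Gpr4, Clec14a and Cyyr1 had the smallest P of the list, with log2 fold changes of 0.13, -0.21 and 0.14 (limma, adjusted p = 0.995 each), and Clec14a passed the rule without MWA+2DG mouse 2, at -0.318.

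Relative to blood endothelium the log2 fold changes were close to those given above. Glycam1 was at -0.34 (interval -1.10 to 0.43), Chst4 at -0.22 (-0.50 to 0.06), Madcam1 at -0.10 (-0.73 to 0.53) and Fut7 at -0.10 (-0.43 to 0.23). Ackr1 was at 0.00 (-0.35 to 0.35), Cdh5 at -0.01 (-0.19 to 0.17) and Pecam1 at 0.05 (-0.21 to 0.32). None of the 7 genes passed the rule in either direction, beside 0.832% of the tested genes called higher and 1.34% called lower on this scale. Leaving out MWA+2DG mouse 2 again brought Chst4 past it, at -0.32 with an unadjusted limma P of 0.0119 and an adjusted p of 0.998 (0.914 to 1.0 over all alternatives).

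Because the 10 libraries fall into 2 sets, no correlation over all of them was taken with the endothelium level, and the 4 libraries numbered 1 and 2 are too few for one. Over the 6 libraries numbered 3 to 5, Cdh5 had the closest relation of the 9 genes (Pearson r = 0.91, exact permutation p = 0.033, 0.3 after Benjamini-Hochberg adjustment over 9 genes, Spearman rho = 0.83, exact permutation p = 0.058). Without the 2 libraries farthest from the median level its r was 0.62. Glycam1 had r = 0.03, Chst4 r = 0.34 and Ackr1 r = 0.26 (exact permutation p = 0.972, 0.506 and 0.567, and 0.972 each after the same adjustment).

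As a description only, the tested genes whose log2 levels were most like Glycam1 over all 10 libraries were mt-Co2, Gm28661, Vrk2, Ogfrl1 and Rtl6, each with r = 0.96, none of them an endothelial marker. These values share the 2 sets of libraries, so genes that differ between the sets correlate. Cd34 had r = 0.94 with Glycam1 (place 18 of 13333), Chst4 had r = 0.88 (place 109), Pecam1 had r = 0.83 (place 291) and Madcam1 had r = -0.52. For Ackr1 the closest were Tcirg1 (r = 0.94), Os9 (0.89), Fbxw17 (0.88), Gm5619 (0.86) and Prelid2 (0.86), and Glycam1 had r = 0.16 with it. For Cdh5 the closest were Cttn (0.97), Rap1gap2 (0.96), Dsg2 (0.94), Ppfibp1 (0.93) and Col15a1 (0.91).

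The lymphotoxin pathway, on which mature venules depend, was measured in full. All 10 of its listed genes were tested, and 0 rose and 0 fell by the rule, with a median log2 fold change of 0.05. Lta, encoding lymphotoxin alpha, was at 19.7 ± 2.51 FPKM with 2DG and 23.4 ± 1.53 FPKM without (SD, n = 5), with 4 of 5 MWA+2DG mice below every MWA mouse. Its log2 fold change was -0.24, just inside the threshold of 0.25, with a limma P of 0.0286 and an adjusted p of 0.995. It passed the rule without MWA+2DG mouse 2 (-0.288), MWA mouse 5 (-0.273) or MWA+2DG mouse 4 (-0.255), and with libraries rescaled to equal totals it was at -0.184 (limma P of 0.12). Ltbr, the receptor, was at 8.55 ± 1.35 and 7.48 ± 0.845 FPKM, and Map3k14, its kinase NIK, was at 11.5 ± 0.696 and 10.7 ± 0.936 FPKM, and neither passed.

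The genes listed for lipid mediators were measured as well. Enpp2 was at 49.1 ± 16.8 FPKM with 2DG and 50.6 ± 10.1 FPKM without (SD, n = 5). Spns2, the exporter of sphingosine 1-phosphate, was at 9.65 ± 2.27 and 10.6 ± 1.70 FPKM. Of the 5 genes of this list, with Sphk1 and Plpp3 among them, 0 passed the rule, and the median log2 fold change was -0.03.

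Among cytokines that can induce selectins, Osm was the 1 gene of 5 tested that rose by the rule, and 0 fell. Of all tested genes the rule called 0.952% higher and 1.87% lower. Osm was at 4.50 ± 0.461 FPKM with 2DG and 3.42 ± 0.526 FPKM without (SD, n = 5), with 4 of 5 MWA+2DG mice above every MWA mouse. The log2 fold change was 0.32 with a limma P of 0.00615 and an adjusted p of 0.995. Il1b, at 2.64 ± 1.63 and 3.80 ± 2.25 FPKM, and Il4, at 1.03 ± 0.476 and 1.33 ± 0.271 FPKM, did not pass, although Il4 did without MWA+2DG mouse 2, at -0.347.

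The lymphocyte receptors that the venules serve were all tested, 12 in number, and 0 rose or fell by the rule, with a median log2 fold change of 0.10. Itga4 and Itgb7, which form the Madcam1 receptor, had log2 fold changes of 0.26 and 0.24 (limma, adjusted p = 0.995 each). Itga4 passed the rule without MWA mouse 4 (0.320), and Itgb7 passed without MWA mouse 1 (0.349) or with libraries rescaled to equal totals (0.309).

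**Figure D4:**
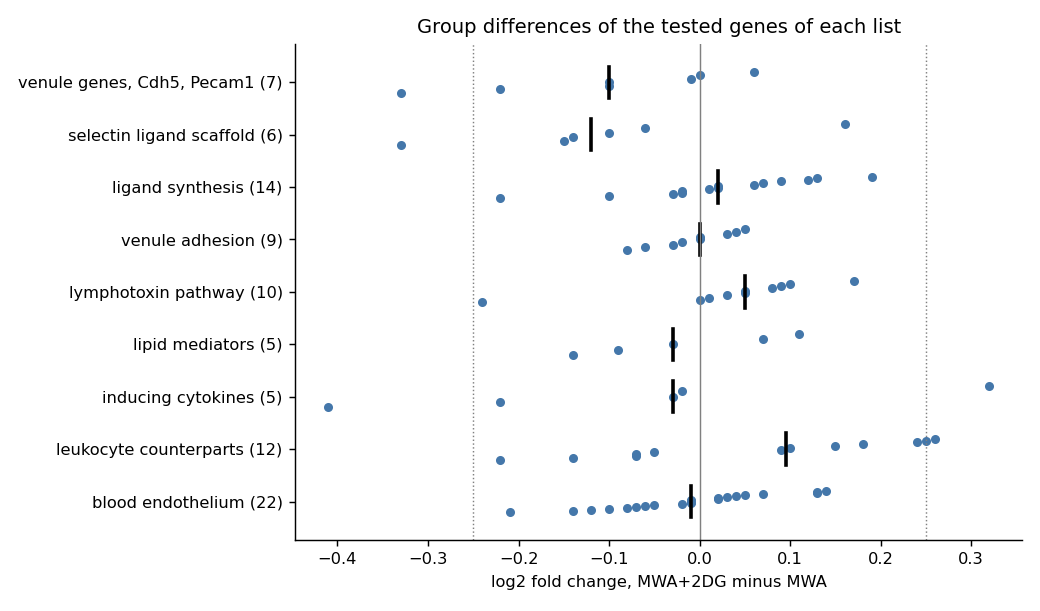
Log2 fold change of MWA+2DG over MWA (horizontal axis) for each tested gene of 9 lists (points, number of genes in brackets), with the list's median as a black bar and dotted lines at -0.25 and 0.25. The 7 venule and endothelial genes have a median of -0.10, and the blood endothelium genes one of -0.01.

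Markers of other cells that share these genes were read in every library. Glycam1 is also made by the mammary gland, near the inguinal node. In these libraries the milk protein genes Csn1s1 and Csn2 reached at most 0.00819 and 0.597 FPKM. The epithelial genes Epcam, Krt8, Krt18 and Krt19 reached at most 2.87, 2.57, 3.13 and 2.65 FPKM. The part of the gland in the Glycam1 values was not tested. The mammary epithelium list summed to 2.81 to 15.9 FPKM with 2DG and 3.01 to 7.35 FPKM without. The adipocyte list summed to 15.7 to 139 FPKM with 2DG and 11.2 to 29.6 FPKM without. Its sum was highest in MWA+2DG mouse 5, where Glycam1 was lowest and Ackr1 and Selp were highest. Of its genes, Adipoq and Cfd were next highest in MWA+2DG mouse 2, at 4.59 and 29.1 FPKM. There Glycam1 was the highest of all libraries, at 804 FPKM, with Ackr1 at 5.39 and Selp at 0.457 FPKM. The part of adipocytes in those values was not tested. The neutrophil list summed to 11.5 to 25.3 FPKM with 2DG and 22.9 to 101 FPKM without. Of its 5 tested genes, 2 (S100a8 and S100a9) fell by the rule (limma, adjusted p = 0.995 each), beside 1.87% of all tested genes. Without MWA+2DG mouse 2, S100a8 had an unadjusted limma P of 0.0597, and the exact Wilcoxon test gave an unadjusted P of 0.0952 for S100a8 and 0.0556 for S100a9, so that neither passed. The lymphatic marker Prox1 was at 0.448 to 1.6 FPKM, and the lymphocyte markers Cd3e and Cd79a were at 24.2 to 38.8 and 395 to 556 FPKM. By the rule 0 genes rose or fell among those tested of the lists for capillaries and arteries (9 genes), lymphatic endothelium (8), pericytes and smooth muscle (9), reticular fibroblasts (10), platelets (3), mammary epithelium (2), adipocytes (7), T cells (8), B cells (6) and liver (7).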

How the data were processed

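Libraries were poly(A)-selected, dUTP-stranded RNA of 1 TDLN sample per mouse, 5 MWA and 5 MWA+2DG. The submitters' processing notes name cutadapt 1.9, HISAT2 2.0.4, UMI-tools, StringTie 1.3.4d and build mm9, and the authors deposited FPKM per Ensembl gene from StringTie, 1 table per mouse. FPKM holds no counts, so depth and counting error are unknown; summed FPKM was 312143 to 359984 and genes above 0 numbered 24327 to 25226 per library. Stated strand and molecular identifiers could affect FPKM only through the authors' quantification, and how they were used there is not stated in the sources read.

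Symbols matched 33541 of 33643 identifiers, and 57 shared symbols were summed, which left 33585 genes. The 13334 genes averaging 1 FPKM or more were fitted with limma 3.58.1 (R 4.3.3) on log2(FPKM + 1) without covariates, and p was adjusted by Benjamini-Hochberg over all of them. A fold change on this scale understates the change of low genes. Selp and Sele were compared by exact permutation (SciPy and Python scripts), and the fit and the permutation test were tested on simulated data. The genes and all gene lists were chosen with earlier results of these data known. Named outside the 9 genes were, by rule, genes of the lists above, among them the 3 with the smallest P of each, defining markers of other cells and the 5 genes most like Glycam1, Ackr1 and Cdh5; some genes that this rule covers are not reported here. Alternatives were pseudocount, filter, scaling, limma-trend, Wilcoxon test, the replicate number or set as a term, other endothelial references and each mouse left out. Libraries numbered 1 to 5 were taken as separate mice; the labels do not name the animals, so p-values measure the spread between these libraries.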

Additional observations from a re-analysis of the deposited data

Results flagged for a closer look

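Of 82 groups of 5 libraries checked with Dixon's test, 9 had a library far from the other four; chance alone gives about 1 in 20, and none of the 9 venule and endothelial genes was among them. Slc35c1, the Golgi transporter of GDP-fucose, was at 22.0 FPKM in MWA+2DG mouse 3 and at 17.9 to 19.0 FPKM in the others of its group. Osm was at 4.33 FPKM in MWA mouse 1 and at 3.06 to 3.37 FPKM in the others. Il4 was at 1.87 FPKM in MWA+2DG mouse 2 and at 0.697 to 0.919 FPKM in the others. Il1b was at 7.71 FPKM in MWA mouse 4 and at 2.03 to 3.51 FPKM in the others. The summed neutrophil genes stood at 101 FPKM in MWA mouse 1, against 22.9 to 28.3 FPKM in the others, and at 25.3 FPKM in MWA+2DG mouse 5, against 11.5 to 14.6 FPKM. Of these genes, S100a8 was at 21.9 FPKM in MWA mouse 1, against 2.40 to 4.05 FPKM, and S100a9 at 46.9 FPKM there, against 7.52 to 12 FPKM, and at 10.7 FPKM in MWA+2DG mouse 5, against 1.31 to 3.74 FPKM.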

How the results depend on the processing

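None of the tested genes among the 9 (7 of them, and Selp and Sele as well without the filter) passed the rule under another pseudocount, filter, scaling, limma-trend, the exact Wilcoxon test, the threshold read on the natural log scale, no fold threshold, or the set as a term. With each mouse left out in turn the count of the 7 tested genes past the rule was 0 to 1, both as measured and relative to blood endothelium, and the 1 was Chst4 without MWA+2DG replicate 2; at an adjusted p below 0.05 it was 0 throughout. Relative to Cdh5 alone, to Cdh5 and Pecam1, with the endothelium level as a covariate, or with a pseudocount of 0.1 it was 0 too. The sign of Ackr1 turned with a pseudocount of 0.1 (-0.002), quantile normalization (-0.007) and, relative to Cdh5, at 0.011; Cdh5 turned to 0.053 and Plvap to 0.029 when rescaled to a total of 1000000, and Plvap to 0.019 with quantile normalization. The cause was not tested.

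Leaving out mice gave log2 fold changes of -0.657 to -0.072 for Glycam1, -0.361 to -0.127 for Chst4, -0.195 to 0.106 for Madcam1, -0.218 to 0.006 for Fut7, -0.123 to 0.135 for Ackr1, -0.063 to 0.044 for Cdh5, -0.026 to 0.15 for Pecam1, -0.023 to 0.091 for Icam1, -0.096 to 0.009 for Plvap and -0.215 to 0.054 for Enpp2, and relative to blood endothelium -0.233 to 0.139 for Madcam1, -0.147 to 0.092 for Ackr1 and -0.055 to 0.024 for Cdh5.

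The replicate numbers were not taken as pairs, since that needed every same-numbered pair to correlate above 0.1 and their deviations correlated at 0.33, 0.5, 0.11, 0.03 and 0.15; 3 of 10 libraries correlated best with their own number. With the number as a block the 7 tested genes still gave 0 calls (Glycam1 -0.33, interval -0.77 to 0.10) and all genes 449, against 376 without it. All-gene calls were 210 with the Wilcoxon test, 230 with a filter of 5 FPKM (which left Ackr1 untested) and 567 without a fold threshold; relative to blood endothelium they were 290, and 170 relative to Cdh5 and Pecam1. Rescaling changed 127 higher and 249 lower genes to 328 and 159. Without counts, depth sets no stated limit, and 5 mice a group left intervals as wide as that of Glycam1.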
